A study of Rattus with 6 samples.

Results

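The genes described here are the core machinery that joins and divides mitochondria: the fusion GTPase genes Mfn1, Mfn2 and Opa1, the protease genes Oma1 and Yme1l1 that cut OPA1, the fission GTPase gene Dnm1l, and the genes of its outer membrane adaptors and partners Fis1, Mff, Mief1 and Mief2. They were chosen by gene name, with earlier results of these data known, and all 10 were found among the 54012 genes of the deposited table. RNA was sequenced from 6 primary cultures labelled as vascular smooth muscle cells of the aorta, all exposed to angiotensin II (Ang II), the vasoconstrictor peptide of the renin-angiotensin system. In 3 cultures the cells had received an siRNA against CDCP1, a transmembrane glycoprotein phosphorylated by Src family kinases, before Ang II (si-CDCP1, labelled as a knockdown). The other 3 carry the label si-NC, a control siRNA on a wild-type genotype. No culture without Ang II or without siRNA was analysed here, so every value below is from cells under both. The labels do not say whether replicates came from separate animals or isolations, and p-values therefore reflect the spread between libraries alone, possibly technical.

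Mitochondria form a network that is remodelled by large GTPases of the dynamin family. Mitofusins tether and merge outer membranes and OPA1 merges inner membranes and shapes cristae, whereas the dynamin-related protein DRP1, encoded by Dnm1l, is drawn from the cytosol to the outer membrane, where it constricts and cuts the organelle. In vascular smooth muscle, Ang II is known to promote DRP1-dependent fission, and fission can precede mitophagy, the removal of damaged mitochondria that the series title names. Much of this control acts on proteins, through phosphorylation of DRP1 and cleavage of OPA1, which transcript levels do not measure.

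Reads in listed genes numbered 16050517 to 19771638 per library. Values are given as FPKM, that is, fragments divided by gene length and by a library total. The target could not serve as a check of the labels, since Cdcp1 had 2, 2 and 1 reads in si-NC replicates 1 to 3 and 0, 5 and 0 reads in si-CDCP1 replicates 1 to 3. The organism label is rat while the genes and the build are mouse (mm10); which species the reads came from was not settled here. Of 8 smooth muscle markers, only Acta2 and Smtn reached a mean of 1 FPKM, and Cnn1 and Myh11 were under 0.1 FPKM. Tagln, Myocd, Des and Lmod1 had means of 0.15, 0.23, 0.73 and 0.93 FPKM, so that the markers bear out the label only in part. The summed level of those 8 ran from 46.0 to 50.4 FPKM in si-NC and from 44.6 to 75.9 FPKM in si-CDCP1. Most of it was Acta2, at 35.7, 36.9 and 39.6 FPKM in si-NC and at 42.0, 34.4 and 64.2 FPKM in si-CDCP1. The highest sum was thus that of si-CDCP1 replicate 3 alone. The 4 fibroblast markers summed to 276.6 to 309.9 FPKM for si-NC, with 274.5 to 308.1 FPKM for si-CDCP1, nearly all of it Col1a1 (means of 279 and 278 FPKM), with Lum under 0.1 FPKM. The fibroblast marker Pdgfra, singled out after its values were seen, was lower in every si-CDCP1 library (9.49, 8.98 and 7.59 FPKM) than in any si-NC library (9.97, 10.5 and 10.6 FPKM), at a BH-adjusted p of 0.316 in limma, and its part in the results below was not tested. Endothelial, macrophage, epithelial and pericyte markers, 4 genes each, summed to at most 1.68 FPKM in any library, with Cdh5, Adgre1, Krt18 and Abcc9 at 0 throughout. The macrophage sum, mostly Cd68, ran from 1.30 to 1.33 FPKM in si-NC and from 0.73 to 0.89 FPKM in si-CDCP1. The groups did not overlap for Cd68, Kdr, Csf1r and Kcnj8, lower in si-CDCP1, nor for Tek, higher, all on at most 33 reads per library. Kcnj8 had at most 2 and Csf1r at most 6 reads in any library. Of the 12080 genes whose mean reached 1 FPKM, 25.0% showed such a separation, in either direction. In bulk RNA, fewer cells of a type and less RNA per cell cannot be told apart. A pair of si-CDCP1 libraries behaved differently from the rest: replicate 3 correlated less well with the other libraries (Pearson r across 12080 genes 0.979 to 0.983, against 0.988 to 0.991 among the other 5), and replicate 1 had lower values for longer genes, as described further on. For the fusion and fission genes and the named helpers, a highest or lowest value may lie in one of these libraries. The difference is then given without that library too, in the text or in the plot of differences.

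No difference between si-CDCP1 and si-NC was detected for any of the fusion and fission genes. In limma's moderated test on log2(FPKM + 1), 0 of the 10 passed a Benjamini-Hochberg (BH) adjusted p of 0.05, and 0 of the 10 had an unadjusted p under 0.05. Over all 12080 genes tested, those whose mean reached 1 FPKM, 0% passed the adjusted threshold and 14.3% the unadjusted one. Limma voom on the reads recovered from the FPKM likewise called 0 of the 10 at either threshold, against 0.0348% of 14365 genes after adjustment and 14.8% before it. For 0 of the 10 did all si-CDCP1 libraries lie above, or all below, all si-NC libraries, a separation that 25.0% of the 12080 genes showed. The log2 differences, si-CDCP1 minus si-NC, ran from -0.069 for Oma1 to 0.085 for Dnm1l, with 4 above and 6 below 0 and a median of -0.011. Over all genes tested the median was 0.0077. The median size of the difference, sign ignored, was 0.045 for these 10 genes and 0.093 over all genes tested, and 54.0% of all genes had a larger difference than Dnm1l. The 95% intervals show how large a difference between these libraries could have been missed, while the knockdown itself could not be checked. In limma on all 6 libraries none reached beyond 0.37 in size, and apart from that of Oma1, the lowest gene, none reached beyond 0.29. Other settings gave wider intervals: that of Oma1 reached -0.50 in voom, and that of Dnm1l 0.35 in limma without si-CDCP1 replicate 1. The limma values are differences of log2(FPKM + 1), which understates the change of a low gene such as Oma1.

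**Figure D1:**
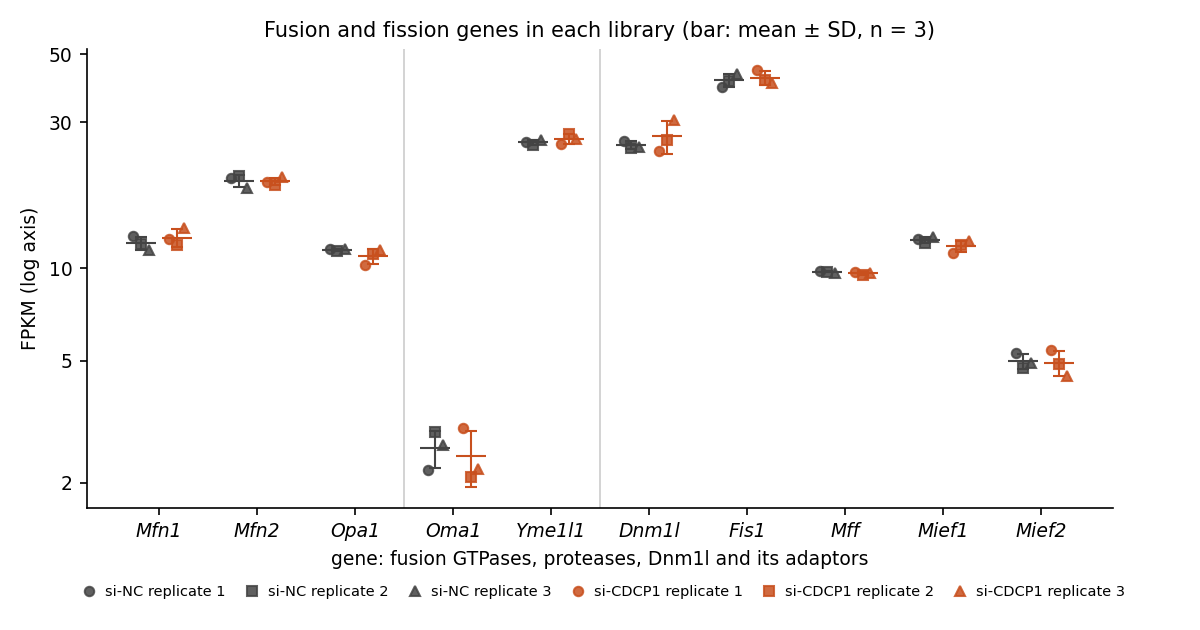
FPKM of the 10 fusion and fission genes on a log axis, with 1 point per library (si-NC grey, si-CDCP1 orange, shape for the replicate number) and the mean ± SD of each group (n = 3). The 2 groups overlap for every gene, and the levels span from 2.09 FPKM for Oma1 to 44.4 FPKM for Fis1.

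The order of the levels was the same in outline in every library. Over the 6 libraries Fis1 was highest with a mean of 41.5 FPKM, followed by Yme1l1 and Dnm1l with 26.1 FPKM each, Mfn2 with 19.3, Mfn1 with 12.4, Mief1 with 12.1, Opa1 with 11.2, Mff with 9.70, Mief2 with 4.95 and Oma1 with 2.52 FPKM. Fis1 thus lay above 89.4% of the genes tested and Oma1 above 16.8%. Neighbours in this order had ranges that did not overlap, with 3 exceptions: Yme1l1 and Dnm1l, Mfn1 and Mief1, and Mief1 and Opa1. Of these, Mief1 exceeded Opa1 in 6 of 6 libraries, Yme1l1 exceeded Dnm1l in 4, and Mfn1 exceeded Mief1 in 3. FPKM divides by the length listed for each gene (1714 bases for Fis1 to 9757 bases for Mff). A gene whose expressed isoform is shorter than that length would thus be placed too low in this order. The species of the reads was not settled. Whether reads of all genes matched mm10 equally well was not tested, which limits comparisons of levels between genes, here and below.

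The mitofusin genes, whose products sit in the outer membrane and tether one mitochondrion to the next, differed between the groups by less than the spread between libraries. Mfn1 (ENSMUSG00000027668, protein coding, mm10 chromosome 3, 32529465 to 32579239, plus strand) was at 12.7, 12.0 and 11.5 FPKM in si-NC replicates 1 to 3 and at 12.5, 11.9 and 13.5 FPKM in si-CDCP1 replicates 1 to 3. The single high value was that of si-CDCP1 replicate 3, and the remaining libraries of the knockdown label lay inside the control range. The log2 difference of Mfn1 was 0.055 (SE 0.065, 95% interval -0.099 to 0.21, BH-adjusted p = 0.705 in limma), and 0.0084 without that library. Mfn2 (ENSMUSG00000029020, chromosome 4, 147873599 to 147904704, minus strand), which also links mitochondria to the endoplasmic reticulum, was at 19.7, 20.01 and 18.3 FPKM in si-NC and at 19.1, 18.7 and 19.8 FPKM in si-CDCP1. All 3 si-CDCP1 values of Mfn2 lay within the control range. Its log2 difference, -0.0059 (SE 0.054, 95% interval -0.13 to 0.12, BH-adjusted p = 0.968 in limma), was the smallest in size among the 10 genes. Mfn2 exceeded Mfn1 in every library: the ratio of their FPKM was 1.60 ± 0.0586 in si-NC and 1.53 ± 0.0538 in si-CDCP1 (SD, n = 3 per group), and the ranges of the groups overlapped.

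Opa1 (ENSMUSG00000038084, protein coding, mm10 chromosome 16, 29579334 to 29654884, plus strand), the inner membrane fusion GTPase, was nearly equal in the 3 controls and more spread in the knockdown group. It was at 11.5, 11.4 and 11.5 FPKM in si-NC and at 10.3, 11.1 and 11.5 FPKM in si-CDCP1 replicates 1 to 3. The first and second si-CDCP1 libraries lay below all controls and the third within them. The mean of Opa1 was 11.5 ± 0.0736 FPKM for si-NC, with 11.0 ± 0.641 FPKM for si-CDCP1 (SD, n = 3 per group). The log2 difference was -0.065 (SE 0.057, 95% interval -0.20 to 0.068), with a BH-adjusted p of 0.596 in limma. Without si-CDCP1 replicate 1, which holds the lowest value, the log2 difference of Opa1 was -0.022, and without si-CDCP1 replicate 3 it was -0.098 (BH-adjusted p = 0.376 in limma). Together Mfn1, Mfn2 and Opa1 summed to 42.9 ± 1.38 FPKM for si-NC, with 42.8 ± 1.77 FPKM for si-CDCP1 (SD, n = 3 per group).

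The proteases that cut OPA1 at the inner membrane stood far apart in level. Yme1l1 (ENSMUSG00000026775, protein coding, mm10 chromosome 2, 23156369 to 23199260, plus strand), an ATP-dependent protease that processes OPA1 constitutively, was at 25.8, 25.3 and 26.2 FPKM in si-NC and at 25.6, 27.4 and 26.3 FPKM in si-CDCP1. The si-CDCP1 values of Yme1l1 began inside the control range and 2 of them exceeded it slightly, for a log2 difference of 0.035 (SE 0.048, 95% interval -0.078 to 0.15, BH-adjusted p = 0.749 in limma). Oma1 (ENSMUSG00000035069, chromosome 4, 103313812 to 103371868, plus strand), a metalloprotease that is activated when membrane potential is lost and then cleaves OPA1 to its short forms, was at 2.21, 2.92 and 2.66 FPKM in si-NC and at 3.02, 2.09 and 2.21 FPKM in si-CDCP1. The si-CDCP1 libraries held both the highest and the lowest value of Oma1. Its log2 difference was -0.069 (SE 0.13, 95% interval -0.37 to 0.24, BH-adjusted p = 0.819 in limma), and -0.19 without si-CDCP1 replicate 1. Oma1 rested on 73 to 112 reads per library, for which counting error alone gives a coefficient of variation of 10.4%, while the 6 libraries varied by 15.9%. The ratio of Yme1l1 to Oma1 in FPKM was between 8.47 and 13.1 over the 6 libraries, and both of these extremes were si-CDCP1 libraries.

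On the fission side, Dnm1l had the largest difference of the 10 on the log2(FPKM + 1) scale, and without 1 library it was close to 0. With a pseudocount of 0.1 FPKM the largest was that of Oma1, at -0.095 beside 0.088 for Dnm1l. Dnm1l (ENSMUSG00000022789, protein coding, mm10 chromosome 16, 16312230 to 16358959, minus strand) was at 26.1, 24.8 and 24.9 FPKM in si-NC and at 24.1, 26.2 and 30.6 FPKM in si-CDCP1. The knockdown group thus ran from the lowest of all 6 values, in replicate 1, to the highest, in replicate 3. The mean of Dnm1l was 25.3 ± 0.770 FPKM for si-NC, with 27.0 ± 3.30 FPKM for si-CDCP1 (SD, n = 3 per group). The log2 difference was 0.085 (SE 0.086, 95% interval -0.12 to 0.29, BH-adjusted p = 0.650 in limma). Without si-CDCP1 replicate 3 the difference was -0.0059 (BH-adjusted p = 0.967 in limma), and without si-CDCP1 replicate 1 it was 0.16 (BH-adjusted p = 0.326 in limma). The 6 libraries varied by 8.95% for Dnm1l, on 2100 to 2733 reads, where counting error gives 2.07%. The ratio of Dnm1l to the sum of Mfn1, Mfn2 and Opa1 was 0.589 ± 0.0171 in si-NC and 0.629 ± 0.0527 in si-CDCP1 (SD, n = 3 per group); it was 0.577, 0.628 and 0.682 in si-CDCP1 replicates 1 to 3, so that the first of these lay inside the control range of 0.569 to 0.602.

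**Figure D2:**
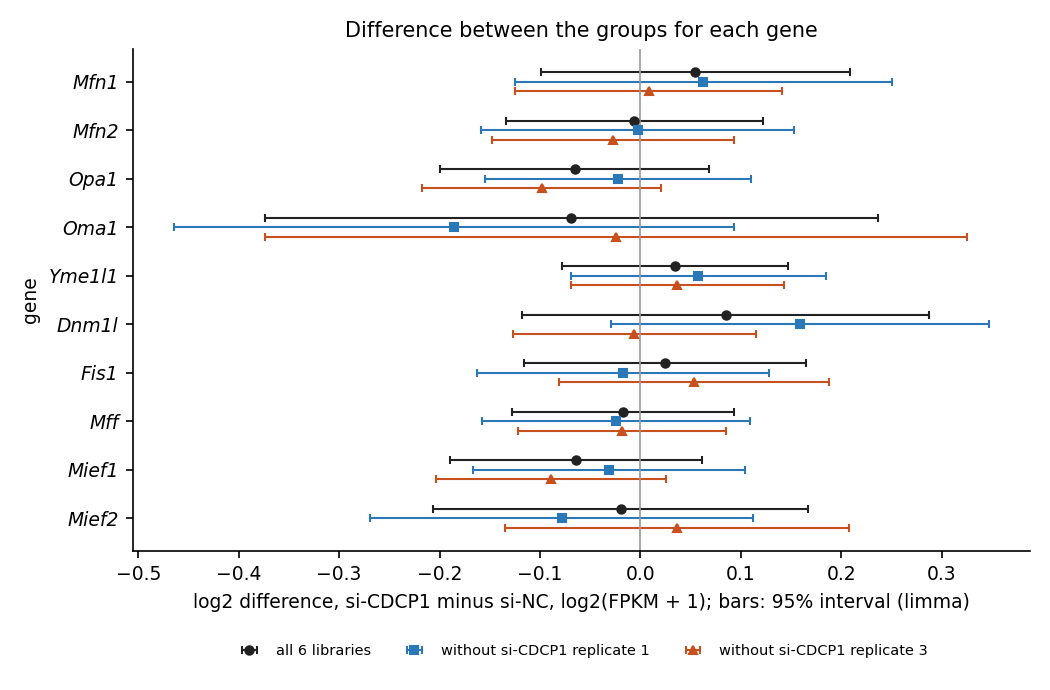
Log2 difference between si-CDCP1 and si-NC for each gene, with 95% intervals from limma, in all 6 libraries (circles) and without si-CDCP1 replicate 1 (squares) or replicate 3 (triangles). Every interval includes 0, and Dnm1l moved most between the settings, from 0.16 without replicate 1 to -0.0059 without replicate 3.

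Fis1 and Mff encode tail-anchored outer membrane proteins of fission, and the values of their groups overlapped as well. Fis1 (ENSMUSG00000019054, protein coding, mm10 chromosome 5, 136953275 to 136966234, plus strand) was at 39.2, 41.0 and 43.2 FPKM in si-NC and at 44.4, 41.1 and 40.2 FPKM in si-CDCP1. The highest value of Fis1 was in si-CDCP1 replicate 1 and the rest of that group lay within the controls. The log2 difference was 0.024 (SE 0.060, 95% interval -0.12 to 0.17, BH-adjusted p = 0.863 in limma), and -0.017 without si-CDCP1 replicate 1. Mff (ENSMUSG00000026150, chromosome 1, 82724890 to 82752394, plus strand), a main DRP1 receptor, was at 9.82, 9.76 and 9.70 FPKM in si-NC and at 9.74, 9.50 and 9.65 FPKM in si-CDCP1. Mff was the steadiest of the 10 genes: the highest library exceeded the lowest by a factor of 1.03, and the coefficient of variation over the 6 libraries, 1.14%, was smaller than the 2.47% that counting error alone gives. Its log2 difference was -0.017 (SE 0.047, 95% interval -0.13 to 0.094, BH-adjusted p = 0.881 in limma).

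Mief1 and Mief2 encode MiD51 and MiD49, related outer membrane proteins that bind DRP1 independently of Mff and Fis1. Mief1 (ENSMUSG00000022412, protein coding, mm10 chromosome 15, 80234018 to 80253371, plus strand) was at 12.4, 12.1 and 12.6 FPKM in si-NC and at 11.2, 11.9 and 12.3 FPKM in si-CDCP1. As with Opa1, si-CDCP1 replicates 1 and 2 lay below all controls and replicate 3 within them. Mief1 had the smallest p of the 10 genes, with a log2 difference of -0.064 (SE 0.053, 95% interval -0.19 to 0.062, BH-adjusted p = 0.579 in limma). For Mief1 the log2 difference was -0.031 without si-CDCP1 replicate 1 and -0.089 without si-CDCP1 replicate 3 (BH-adjusted p = 0.405 in limma). Mief2 (ENSMUSG00000018599, chromosome 11, 60728398 to 60732951, plus strand) was at 5.30, 4.74 and 4.92 FPKM in si-NC and at 5.40, 4.88 and 4.46 FPKM in si-CDCP1. The highest and the lowest value of Mief2 were both si-CDCP1 libraries, and the log2 difference was -0.020 (SE 0.079, 95% interval -0.21 to 0.17, BH-adjusted p = 0.923 in limma). It was -0.079 without si-CDCP1 replicate 1 and 0.036 without si-CDCP1 replicate 3. Mief1 exceeded Mief2 by a factor of 2.49 ± 0.120 in si-NC and 2.43 ± 0.334 in si-CDCP1 (SD, n = 3 per group), with the extremes of 2.08 and 2.75 in si-CDCP1 replicates 1 and 3.

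The makeup of the 4 adaptor transcripts was close in both groups. Fis1 made up 60.2 ± 1.35% of their summed FPKM in si-NC and 61.3 ± 1.23% in si-CDCP1, Mief1 18.1 ± 0.430% and 17.3 ± 1.31%, Mff 14.3 ± 0.482% and 14.1 ± 0.373%, and Mief2 7.31 ± 0.539% and 7.19 ± 0.467% (SD, n = 3 each). The sum was 68.3 ± 1.93 FPKM for si-NC, with 68.2 ± 2.24 FPKM for si-CDCP1. The ranges of the groups overlapped for the sum and for all 4 shares. The shares depend on the listed lengths, 1714 bases for Fis1 and 9757 bases for Mff. In reads Mff exceeded Fis1 in every library, with 1470 to 1924 against 1074 to 1350.

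Where single libraries departed from the rest, the departures of these genes were set beside gene length. In si-CDCP1 replicate 1 the 3 genes listed at under 3000 bases, Fis1, Oma1 and Mief2, had their highest value of all libraries, with log2 deviations from the mean of the other 5 of 0.12, 0.24 and 0.13. In the same library Opa1, Dnm1l and Mief1, which are among the 7 listed at over 5000 bases, had their lowest value, with deviations of -0.14, -0.13 and -0.12. Of all genes tested, 16.4% had their highest and 15.0% their lowest value in that library. The deviations of the other 4 long genes lay between -0.035 and 0.015. Across all 12080 genes the deviation of this library fell with length (Spearman rho -0.31), against rho between -0.044 and 0.090 in the other 5. In bins of length, its median deviation was 0.056 around 2203 bases, -0.0080 around 5255 bases and -0.037 around 8144 bases. These medians were smaller in size than the deviations of Fis1, Oma1, Mief2, Opa1, Dnm1l and Mief1. Across the 10 fusion and fission genes rho was -0.60 in si-CDCP1 replicate 1 and between -0.16 and 0.33 in the other 5. These are descriptions across genes of 1 library, which share its depth and preparation. In si-CDCP1 replicate 3, Dnm1l and Mfn1 were at their highest (deviations of 0.27 and 0.14) and Mief2 at its lowest (-0.15), and 34.0% of all genes tested had their highest value in that library. With each library's trend on length removed, an analysis added after the data were seen, 0 of the 10 genes passed and the log2 differences of Opa1, Dnm1l and Mief1 were -0.062, 0.083 and -0.060. Those of the short genes moved more, to -0.011 for Fis1, -0.046 for Mief2 and -0.10 for Oma1. What set these libraries apart was not tested.

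**Figure D3:**
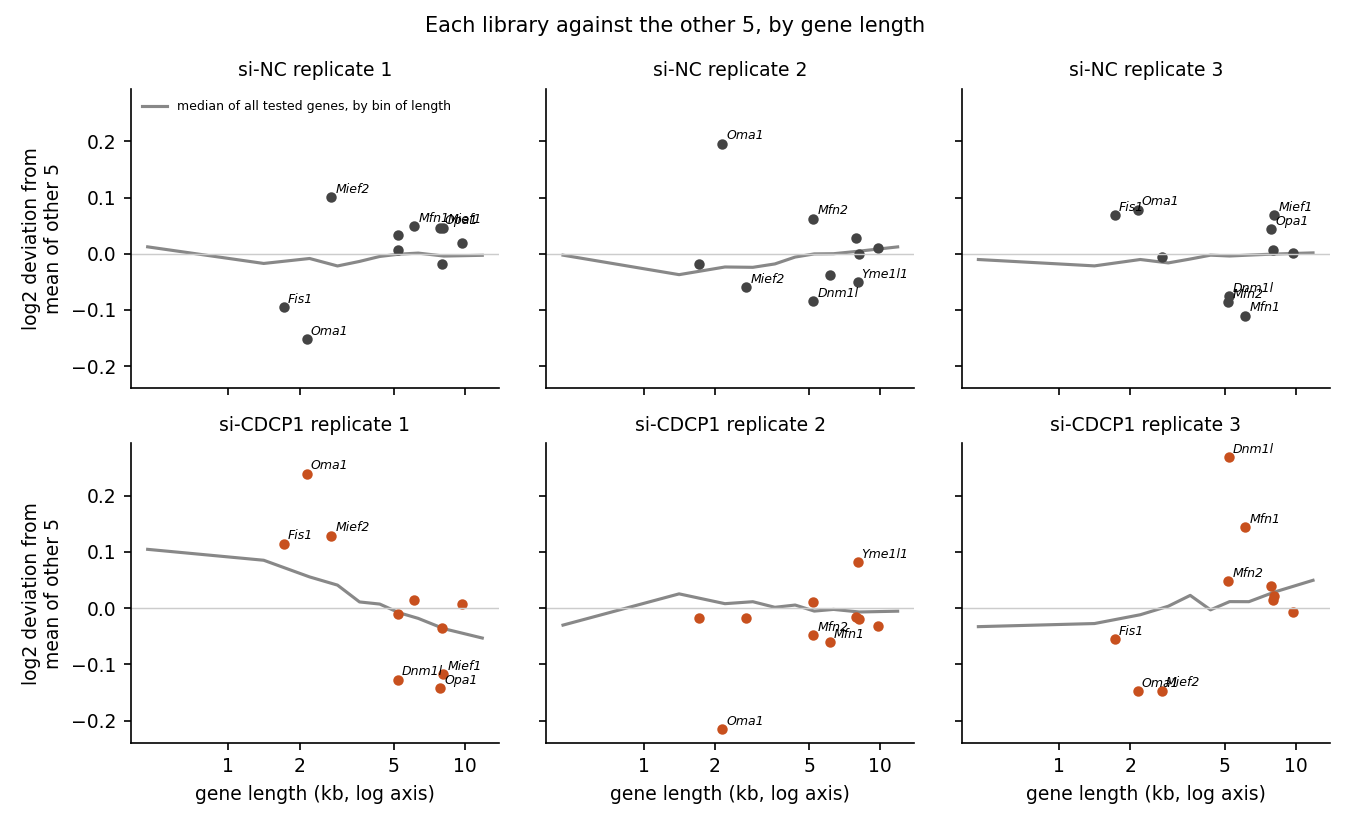
Log2 deviation of each library from the mean of the other 5, against listed gene length on a log axis, for the 10 genes (points, named where the deviation exceeds 0.04) and as the median of all tested genes in each of 10 bins of length (line). In si-CDCP1 replicate 1 the line falls with length, with Oma1, Fis1 and Mief2 above 0 and Opa1, Dnm1l and Mief1 below it.

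Other genes of the pathway, taken from 5 lists of helpers, leaned towards higher values in si-CDCP1, and none passed the adjusted threshold with all 6 libraries weighted equally. Of the 46 genes listed, 45 were found and 41 reached a mean of 1 FPKM. In limma 0 of the 41 rose or fell at a BH-adjusted p of 0.05, 8 were higher and 1 lower at an unadjusted p under 0.05 (9 of 41, beside 14.3% of all genes), and voom on the recovered reads called 0. Positive log2 differences were seen for 32 of the 41, with a median of 0.085, beside a median of 0.0077 and 6314 of 12080 positive over all genes. With all libraries rescaled to equal FPKM sums the count was 26 of 41 and the median 0.033, where the median of all genes was -0.039. The count was 31 without si-CDCP1 replicate 3, 32 without si-CDCP1 replicate 1 and 32 with the length trend removed. With quantile normalisation it was 29 (median 0.051) and with library weights 28 (median 0.065). The medians of all genes in these 2 settings were -0.0027 and 0.0059. With a filter of 5 FPKM, 29 of 37 helpers were positive (median 0.085), beside a median of 0.027 over all 8148 genes tested. In si-CDCP1 replicate 3 the 41 genes were often at their highest: 3 of 6 fusion helpers, 6 of 10 fission helpers, 5 of 8 protease genes, 6 of 11 cristae genes and 4 of 6 transport genes, beside 34.0% of all genes.

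The cristae list holds the MICOS complex, which folds the inner membrane at crista junctions, and its outer membrane partners. Of its 11 genes 10 were on the positive side (median log2 difference 0.11), and 4 had groups that did not overlap, beside 25.0% of all genes. The smallest p-values of the list were those of 2410015M20Rik, the older symbol of the MICOS subunit gene Micos13, and of Chchd3, which encodes the subunit MIC19. The gene 2410015M20Rik was at 35.2, 37.8 and 35.4 FPKM in si-NC and at 47.0, 44.0 and 40.2 FPKM in si-CDCP1, a log2 difference of 0.27 (SE 0.067, BH-adjusted p = 0.267 in limma). Chchd3 was at 32.4, 31.0 and 33.0 FPKM in si-NC and at 37.2, 36.0 and 36.6 FPKM in si-CDCP1, a log2 difference of 0.18 (SE 0.046, BH-adjusted p = 0.267 in limma). All si-CDCP1 libraries lay above all si-NC libraries for both genes, and neither rested on si-CDCP1 replicate 3, without which the log2 differences were 0.32 and 0.18. Without si-CDCP1 replicate 1, where both were highest, they were 0.22 and 0.17. The length of 2410015M20Rik is 755 bases, and with the length trend removed the log2 differences were 0.23 and 0.16. These 2 genes passed the adjusted threshold in voom without si-CDCP1 replicate 3 (BH-adjusted p = 0.0209 and 0.0475). That setting was added after the data were seen, and 3.46% of 14267 genes passed in it. With library weights in limma both genes passed too (BH-adjusted p = 0.0196 and 0.0343), where 7.16% of 12080 did. Both were named for their small p in these same libraries, so passing in another fit is no independent support.

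Among inner membrane proteases and the stress relay, 6 of 8 genes were on the positive side (median log2 difference 0.095). Parl, a rhomboid protease that cleaves PINK1 and PGAM5, was at 13.2, 12.3 and 12.6 FPKM in si-NC and at 14.8, 14.6 and 16.6 FPKM in si-CDCP1, a log2 difference of 0.25 (SE 0.064, BH-adjusted p = 0.267 in limma) and 0.19 without si-CDCP1 replicate 3. Clpp, the matrix protease subunit, was at 33.7, 33.4 and 34.0 FPKM in si-NC and at 40.0, 36.1 and 37.0 FPKM in si-CDCP1, a log2 difference of 0.16 (BH-adjusted p = 0.306 in limma) and 0.11 without si-CDCP1 replicate 1. Both genes were higher in every si-CDCP1 library than in any si-NC library, without passing the threshold over all genes. Of the 6 fusion helpers tested 5 had positive differences (median 0.069): Stoml2, an inner membrane scaffold that binds prohibitins, was at 22.0, 22.4 and 22.2 FPKM in si-NC and at 23.8, 25.3 and 28.2 FPKM in si-CDCP1, a log2 difference of 0.20 (BH-adjusted p = 0.305 in limma) and 0.14 without si-CDCP1 replicate 3. Phb2, a prohibitin that shields long OPA1, had a log2 difference of 0.11 (BH-adjusted p = 0.355 in limma) and 0.087 without si-CDCP1 replicate 1.

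The fission helpers were the list most divided in sign, with 6 of 10 positive and a median of 0.029. Inf2, a formin that builds actin at sites of division, was at 26.6, 28.1 and 24.8 FPKM in si-NC and at 23.8, 24.1 and 18.6 FPKM in si-CDCP1, a log2 difference of -0.25 (SE 0.10, BH-adjusted p = 0.344 in limma) that was -0.14 without si-CDCP1 replicate 3. Pgam5, a mitochondrial phosphatase that can act on DRP1, had a log2 difference of 0.17 (BH-adjusted p = 0.283 in limma) and 0.15 without si-CDCP1 replicate 3. The groups did not overlap for Inf2, with si-CDCP1 lower, nor for Pgam5, with si-CDCP1 higher. Of the 6 transport genes tested 5 had positive differences (median 0.068). The smallest p-values were those of Armcx3, an outer membrane protein of mitochondrial trafficking, with a log2 difference of 0.22 (BH-adjusted p = 0.319 in limma), and Rhot1, which encodes the motor adaptor MIRO1, with 0.10 (BH-adjusted p = 0.420 in limma). Both were highest in si-CDCP1 replicate 3, without which the log2 differences were 0.14 and 0.068. With library weights Stoml2, Pgam5, Parl and Armcx3 passed the adjusted threshold as well, each higher in si-CDCP1 (BH-adjusted p = 0.0349, 0.0369, 0.0369 and 0.0353). In that setting 865 of 12080 genes (7.16%) passed, against 0 with all libraries weighted equally. Stoml2, Pgam5, Parl and Armcx3 too were named for their small p in these same libraries, so passing here is no independent support.

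**Figure D4:**
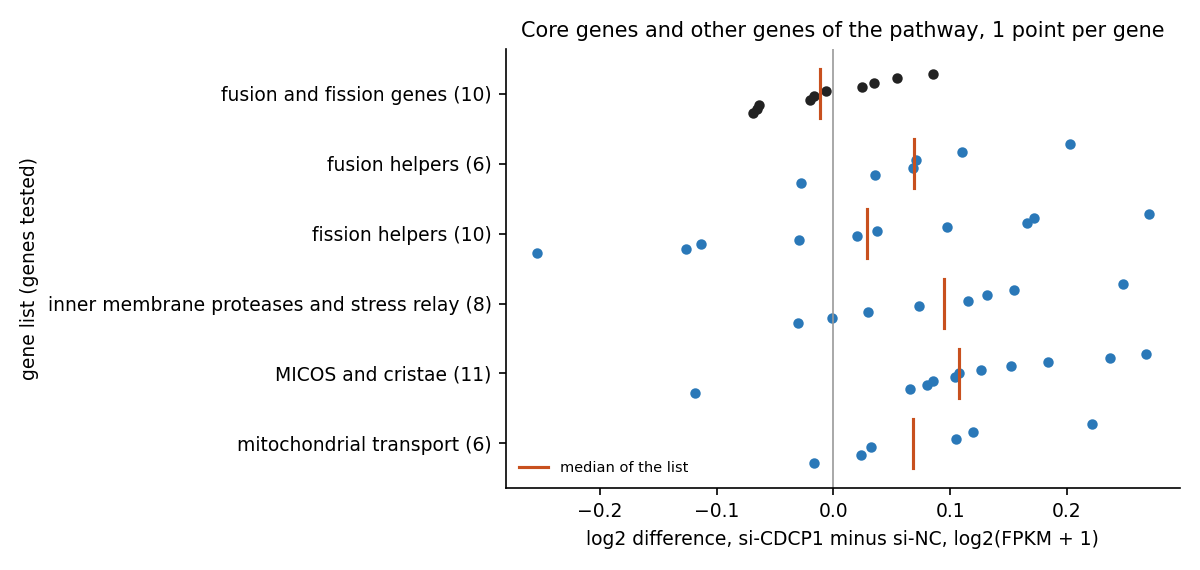
Log2 difference between si-CDCP1 and si-NC, 1 point per gene tested, for the 10 fusion and fission genes and the 5 lists of helpers, with the median of each list as a vertical bar. The 10 core genes lie within 0.085 of 0, and 10 of 11 cristae genes lie above 0.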

How the data were processed

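The authors deposited 1 table of FPKM for the 6 libraries with gene names, positions and lengths on mm10, the build in the submitters' processing notes. For aligner, counter and strand setting the sources used here give nothing. Every deposited FPKM above 0, times gene length, came out as whole reads in units of the smallest value (100% to within 0.01), and the implied totals equalled median-of-ratios size factors times a constant, so the deposited FPKM were already scaled between libraries. Coefficients of variation from reads cover counting error alone. The main fit was limma 3.58.1 (R 4.3.3) on log2(FPKM + 1), with an intensity trend, two-sided, over the 12080 genes whose mean reached 1 FPKM, adjusted over all genes at 0.05. Voom used genes with at least 10 recovered reads in 3 libraries. Replicates were checked for duplicates, and all pairs differed beyond sampling noise (chi-square of reads over its degrees of freedom 2.42 or more). Scripts were tested on simulated data. Named helper genes are the 2 with the smallest p in each list. The members, lists and alternatives were chosen with earlier results of these data known. One listed helper, Marchf5, was not matched by name, while 11 gene names in the table had turned into calendar dates.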

Additional observations from a re-analysis of the deposited data

How the results depend on the processing

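Across 17 other settings, 0 of the 168 values of the 10 genes passed the adjusted threshold (smallest BH-adjusted p 0.200), and 0 of the 10 genes were called in any setting. The sign, which no test supports, was kept in every setting by Opa1, Mff and Mief1 and changed in at least 1 by the other 7. Without a filter, with a filter of 5 FPKM, without intensity trend and with a replicate block, differences equal those of the main fit. The sign could therefore not change in those settings. With equal FPKM sums the log2 differences of Fis1 and Yme1l1 were -0.029 and -0.018, and the median of the 10 genes -0.061. With quantile normalisation Fis1, Mief2 and Yme1l1 were at -0.055, 0.0061 and -0.014. With library weights Mfn1 was at -0.011. With the length trend removed Fis1 was at -0.011, and in voom without si-CDCP1 replicate 3 Dnm1l and Mief2 were at -0.0086 and 0.040; both settings were added after the data were seen. With a filter of 5 FPKM, which leaves out Mief2 and Oma1, the median was 0.0093. Leaving out 1 library at a time gave Mfn2 -0.043 to 0.019, Dnm1l -0.0059 to 0.16, Fis1 -0.017 to 0.059, Mief2 -0.079 to 0.036, Oma1 -0.19 to 0.0039, and a median of the 10 genes of -0.024 to 0.0073. Genes called over the whole table numbered 0 in the main fit, 7 without a filter, 4 with a filter of 5 FPKM, 1 with equal sums, 2 with quantile normalisation, 865 with library weights, 5 in voom, 3 with the length trend removed, 493 in voom without si-CDCP1 replicate 3, and 0 to 1 with 1 library left out. The replicate number as a block called 1 gene and 0 of the 10. The deviations of same-numbered libraries from their group means correlated at -0.020, 0.027 and 0.022. Whether equal numbers mark cultures handled together cannot be told from the labels or from these values. Low depth limits Oma1 most, with 73 reads in its smallest library.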

Other observations

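Over the 6 libraries Opa1 and Mief1 varied together most closely of the 45 pairs among the 10 genes (Pearson r 0.955 on log2(FPKM + 1)). Mff and Yme1l1 ran most opposed (r -0.917). All values are from the same libraries and, for the first pair, both genes were lowest in si-CDCP1 replicate 1. Mff varied by only 1.14%, where counting error alone gives 2.47%, so its pattern in the second pair cannot be told from counting error. Among all other genes tested, the 3 whose pattern over the 6 libraries was most like that of Mief1, the gene with the smallest p, were Gm47483 (r 0.989), a transcript without an Ensembl identifier (r 0.988) and Zdhhc21 (r 0.982), and 15 of 12079 genes had an r over 0.95. Zdhhc21, a palmitoyltransferase gene, was at 6.39, 6.08 and 6.42 FPKM in si-NC and at 5.32, 5.93 and 6.35 FPKM in si-CDCP1.

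Genes that overlap the 10 loci in the deposited table carried few reads. The intronic transcript Gm28941 inside Mff, on the same strand, had 156 reads over the 6 libraries against 1470 to 1924 reads of Mff in each library, and C430014B12Rik, on the opposite strand of Mff, had 47. The transcripts that overlap Dnm1l, Mfn2, Mief1 and Mief2 had 1, 4, 0 and 5 reads in all, and Opa1, Mfn1, Fis1, Oma1 and Yme1l1 overlapped no other gene of the table.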
